A study of Mus musculus with 18 samples.

Results

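The SR proteins are a family of splicing factors, and the messenger RNAs of 10 of them, Srsf1, Srsf2, Srsf3, Srsf4, Srsf5, Srsf6, Srsf7, Srsf9, Srsf10 and Srsf11, were followed here across 18 libraries of mouse hepatocytes. They are 10 of the 37991 genes in the count files and were found by gene symbol. The family was selected on measured values, because Srsf1 and Srsf2 were higher than in PBS in groups given a REVERSIR, so every comparison of a REVERSIR group with PBS is given below as a description without a test. For Srsf1 and Srsf2 themselves, other comparisons that hold REVERSIR libraries reuse the libraries that selected them, and these too are given as differences with their SE and no p-value. The cells were cryopreserved primary hepatocytes of male CD-1 mice, thawed and plated, and total RNA was sequenced. A GalNAc-siRNA carries a sugar ligand that brings it into hepatocytes, and a REVERSIR is an oligonucleotide made to pair with a strand of an siRNA and so to block it. The 6 groups of 3 libraries each received PBS, an siRNA against Ttr (siRNA), a scrambled REVERSIR labelled R-61, a REVERSIR against the Ttr siRNA labelled R-35 (TTR REVERSIR), the siRNA with a scrambled control REVERSIR, or the siRNA with the TTR REVERSIR. All groups share the same commercial source of cells and no allele or transgene is given. The labels used here give no dose, time or number of animals behind the cells. As no label ties a library to its own culture or animal, each p-value measures only the spread between these libraries, which may be technical.

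SR proteins bind short purine-rich and other enhancer motifs in exons through 1 or more RNA recognition motifs, and their C-terminal domain rich in arginine-serine dipeptides, the RS domain, contacts other splicing factors and helps the spliceosome define exons. SRPK and CLK kinases phosphorylate the serines of that domain, which controls import into the nucleus, storage in nuclear speckles and activity, and several members also shuttle to the cytoplasm and take part in mRNA export and translation. Many SR genes hold a conserved poison exon whose inclusion sends the transcript to nonsense-mediated decay, a route by which the proteins limit their own levels.

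The RS domain is the feature that names the family, so its longest unbroken run of arginine and serine codons is shown for each gene. Codons were read 5′ to 3′ from the longest complete coding transcript in the GENCODE vM1 set for NCBIM37, with arginine codons in capitals and serine codons in lower case.
Srsf1: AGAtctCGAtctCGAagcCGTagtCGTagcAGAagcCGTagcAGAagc
Srsf2: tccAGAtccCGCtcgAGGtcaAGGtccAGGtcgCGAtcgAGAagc
Srsf3: tctAGGtctCGTagcCGAtctAGGtca
Srsf4: tcaAGGtctCGCtctCGAagcAGA
Srsf5: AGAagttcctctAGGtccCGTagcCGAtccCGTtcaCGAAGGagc
Srsf6: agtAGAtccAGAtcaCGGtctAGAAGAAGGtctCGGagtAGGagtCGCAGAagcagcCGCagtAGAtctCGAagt
Srsf7: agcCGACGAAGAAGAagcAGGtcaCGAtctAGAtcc
Srsf9: tcaCGGtcgCGGtct
Srsf10: AGGAGAAGAtcgAGGagtCGCtcc
Srsf11: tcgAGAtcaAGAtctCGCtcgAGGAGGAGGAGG
The runs alternate arginine with serine over most of their length and mix codons of both arginine families, those that start with AG and those that start with CG, except in Srsf9, whose arginine codons all start with CG. They ranged from 5 residues in Srsf9 to 25 in Srsf6. Srsf1 had 16 residues, Srsf2 and Srsf5 had 15 each, Srsf7 had 12, Srsf11 had 11, Srsf3 had 9, and Srsf4 and Srsf10 had 8 each. Counted over the whole protein, RS and SR dipeptides numbered 106 in Srsf4, 74 in Srsf6, 55 in Srsf7, 49 in Srsf5, 43 in Srsf10, 41 in Srsf11, 36 in Srsf2, 30 in Srsf1, 25 in Srsf3 and 9 in Srsf9. The run began at 80.6% of the protein in Srsf1, 87.4% in Srsf9 and 92.7% in Srsf3, and at 39.7% in Srsf4, the member with the most dipeptides. Among 21439 genes with a complete coding sequence, 8.10% had a run of at least 5 residues and 14.3% had at least 9 dipeptides, with a median of 3 for each measure.

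All 10 genes are protein coding, and their positions are those of NCBIM37. Srsf1 is on chromosome 11 from 87860875 to 87867257 (plus strand) and Srsf2 on the same chromosome from 116711215 to 116714408 (minus strand). Srsf3 is on chromosome 17 from 29169618 to 29180311 (plus) and Srsf7 on the same chromosome from 80599429 to 80606629 (minus). Srsf4 and Srsf10 are on chromosome 4, from 131429532 to 131457640 (plus) and from 135411662 to 135425823 (plus). Srsf5 is on chromosome 12 from 82046491 to 82051494 (plus), Srsf6 on chromosome 2 from 162757264 to 162762857 (plus), Srsf9 on chromosome 5 from 115777186 to 115783089 (plus) and Srsf11 on chromosome 3 from 157673437 to 157699603 (minus). The annotation gives a transcript of the nonsense-mediated decay class for 5 of the 10, namely 2 for Srsf1, 1 for Srsf2, 1 for Srsf3, 2 for Srsf5 and 3 for Srsf11. Counts per gene merge these with the coding isoforms, so no value here separates productive from poison-exon transcripts.

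Library totals ran from 1755819 to 10145265 counts. PBS replicates 1 and 2 stood apart from the rest, because the mitochondrial ribosomal RNA genes took 24.3% and 24.1% of their counts, against 5.45% in PBS replicate 3 and 1.69% to 9.56% in the other groups. The main results of the fit against PBS are therefore also given without these 2 libraries. Ttr, the target of the siRNA, stood at 21.8% of its PBS mean with siRNA, 20.3% with siRNA + scrambled REVERSIR and 94.8% with siRNA + TTR REVERSIR, as the labels say. The 8 hepatocyte markers summed to between 47800 and 62300 CPM, the counts scaled to a common library size, all 8 detected, while 7 Kupffer cell markers summed to 7.95 to 15.2 CPM, 5 of the endothelium to 39.4 to 58.7 CPM, 6 of stellate cells to 23.9 to 39.7 CPM and 5 of cholangiocytes to 9.84 to 16.4 CPM. Single genes made up most of some sums, with Alb at 36800 to 49600 CPM, Stab2 of the endothelium at 35.2 to 51.2 and Dcn of stellate cells at 17.3 to 30.6. Kdr and Clec4g of the endothelium were each at 0 in 4 libraries, and Col1a1 of stellate cells was at 0 in 9. The 4 markers of lymphocytes and neutrophils summed to at most 2.66 CPM, with Cd79a at 0 in all 18 libraries. In such bulk samples, fewer cells of a type and less RNA per cell cannot be told apart.

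All 10 SR genes passed the filter on low counts, and their levels per length spanned a wide range. Per kilobase of annotated exon, Srsf5, a member first described as a growth-induced gene of regenerating liver, was highest at 51.8 ± 4.74 CPM per kilobase (SD, n = 18). Its lowest library, at 42.6, lay above the highest library of any other member, at 32.9 for Srsf1. Srsf6, a regulator of alternative exons, followed at 27.5 ± 1.76 and Srsf1 at 26.8 ± 2.60, and these neighbours did not differ beyond their spread. Srsf3 had 21.5 ± 2.37, Srsf9 15.6 ± 1.93 and Srsf7 13.3 ± 1.73 CPM per kilobase, each overlapping the next. Srsf10 at 10.2 ± 0.671 and Srsf11 at 9.47 ± 0.992 also overlapped. Srsf4 at 4.02 ± 0.503 lay below every library of Srsf11, and Srsf2 at 2.22 ± 0.535 overlapped Srsf4 only at its top. Among all genes tested, these levels per kilobase stood at the 91.4th percentile for Srsf5, the 83.5th for Srsf6 and the 22.7th for Srsf2. Srsf2 also varied most between libraries, with a coefficient of variation of 24.1% against 6.39% to 13.1% for the other members. It had 10 to 79 counts per library, against 313 to 1595 for Srsf1, so its values carry more counting error.

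**Figure D1:**
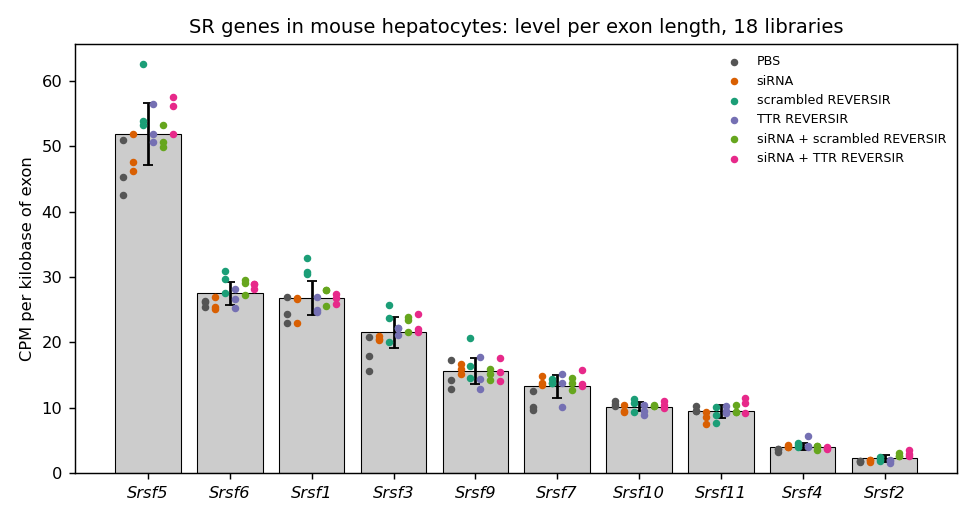
Level of each SR gene in CPM per kilobase of annotated exon, ordered by mean. Bars and whiskers show mean ± SD of 18 libraries and points show single libraries coloured by group. Srsf5 stands above all other members and Srsf2 is lowest, at 2.22 CPM per kilobase.

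Srsf1, among the first SR proteins found, promotes the use of 5′ splice sites next to the enhancers it binds, and it shuttles out of the nucleus. On the CPM scale after TMM scaling, the PBS libraries had 154, 131 and 139, and the siRNA libraries 152, 132 and 153. The scrambled REVERSIR libraries had 188, 174 and 176, and the TTR REVERSIR libraries 142, 154 and 141. With the siRNA added, the scrambled REVERSIR libraries had 159.7, 146 and 159.7 and the TTR REVERSIR libraries 148, 153 and 156. The 3 scrambled REVERSIR libraries without siRNA were the highest of all 18 and overlapped no other group, while the other 5 groups overlapped one another. How many of all genes show such a separation was not counted. Described against PBS, the log2 difference was 0.34 ± 0.08 (SE) for scrambled REVERSIR and 0.04 ± 0.07 for TTR REVERSIR. The combination of siRNA with the scrambled REVERSIR differed from PBS by 0.13 ± 0.07, and that with the TTR REVERSIR by 0.11 ± 0.07. Without PBS replicates 1 and 2, these Srsf1 differences were 0.37, 0.07, 0.17 and 0.14 in the same order. In the authors' deposited table the log2 fold changes of these contrasts, by an estimate whose settings are not stated, were 0.30, 0.03, 0.12 and 0.10.

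The remaining Srsf1 differences follow from the same levels and share the REVERSIR libraries on which Srsf1 was selected. The log2 difference of TTR REVERSIR from scrambled REVERSIR was −0.31 ± 0.08 (0.81-fold). In the presence of the siRNA the same difference between REVERSIRs was −0.02 ± 0.07, and whether the 2 differences differ was not tested. Against siRNA alone, Srsf1 differed by 0.09 ± 0.07 with the scrambled and 0.06 ± 0.07 with the TTR REVERSIR. Adding the siRNA to the scrambled REVERSIR went with a log2 difference of −0.21 ± 0.07.

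Srsf2, which binds exonic enhancers and concentrates in nuclear speckles, gave the largest differences of the family. The PBS libraries had 5.36, 4.96 and 5.29 CPM and the siRNA libraries 6.08, 4.93 and 5.73 CPM. The scrambled REVERSIR libraries had 7.19, 6.49 and 5.62 CPM, and the TTR REVERSIR libraries 4.53, 5.91 and 5.55 CPM. The siRNA + scrambled REVERSIR libraries had 7.61, 7.59 and 9.03 CPM, and the siRNA + TTR REVERSIR libraries 7.61, 8.61 and 10.2 CPM. The 6 libraries that received the siRNA together with a REVERSIR were thus the 6 highest of 18, from 7.59 to 10.2 CPM, and all 12 others lay at or below 7.19 CPM. Srsf2 was selected on such values and the share of all genes with this order was not counted, so the order is a description only. Described against PBS, the log2 difference was 0.61 ± 0.18 in the combination with the scrambled REVERSIR and 0.75 ± 0.18 in that with the TTR REVERSIR, against 0.32 ± 0.24 for scrambled REVERSIR and −0.03 ± 0.22 for TTR REVERSIR alone. Without PBS replicates 1 and 2, these Srsf2 differences were 0.59, 0.73, 0.30 and −0.04 in the same order. The authors' deposited table gives 0.27 and 0.34 for the 2 combinations, and 0.12 and 0.0006 for the REVERSIRs alone. Its SE for each combination is 0.109, also smaller than the 0.18 found here. How the authors estimated their fold changes is not stated, so the 2 sets of values may not be on the same scale.

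The differences of Srsf2 that use no PBS library still hold the combination libraries that were high in the selecting contrast, so they describe the same rise and are no separate evidence of it. Set against siRNA alone, Srsf2 was 0.51 ± 0.16 higher on the log2 scale with the scrambled REVERSIR (1.42-fold) and 0.64 ± 0.16 higher with the TTR REVERSIR (1.56-fold). Averaged over both REVERSIRs the difference from siRNA was 0.58 ± 0.145. Against TTR REVERSIR alone, siRNA + TTR REVERSIR was 0.77 ± 0.18 higher (1.71-fold), and against scrambled REVERSIR alone, siRNA + scrambled REVERSIR differed by 0.29 ± 0.20. The 2 combinations differed from each other by 0.13 ± 0.14, and TTR REVERSIR differed from scrambled REVERSIR by −0.35 ± 0.24. The Kupffer cell markers, 3 of 7 passing the filter, were lower in the combinations than with siRNA. They summed to 12.6 to 15.2 CPM with siRNA, 9.9 to 11.2 with siRNA + scrambled REVERSIR and 9.65 to 12 with siRNA + TTR REVERSIR. Without siRNA they summed to 10.9 to 12.4 CPM in PBS, 7.95 to 10.9 with scrambled REVERSIR and 8.64 to 9.9 with TTR REVERSIR. The hepatocyte markers summed to 47800 to 52200 CPM with siRNA, 52800 to 54100 with siRNA + scrambled REVERSIR and 51100 to 54600 with siRNA + TTR REVERSIR. The part of either in the Srsf2 difference was not tested.

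As no source used here gives the strand of counting, reads of overlapping genes could have been shared. Srsf2 overlaps Mfsd11, on the opposite strand, in 293 exon bases (9.9% of its exons), and the span of 1110005A03Rik with 0 shared exon bases. Mfsd11 itself stood at 23.3 ± 4.06 CPM (SD, n = 3) with scrambled REVERSIR, 20.3 ± 3.34 with TTR REVERSIR, 19.2 ± 0.644 with siRNA, 19.1 ± 1.31 with siRNA + scrambled REVERSIR, 17.8 ± 1.64 with siRNA + TTR REVERSIR and 16.1 ± 3.10 with PBS. The part of shared reads in the Srsf2 values was not tested. Srsf4 overlaps the noncoding Gm12992 on the opposite strand in 1551 exon bases (43.3%), and that gene had at most 1.19 CPM in any library. The levels per kilobase of Srsf2 and Srsf4 divide by all exon bases, shared ones included. What the overlaps do to these levels and their order was not tested. Srsf1 shares 98 exon bases (1.72%) with Gm11508, which had 0 counts in all 18 libraries.

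**Figure D2:**
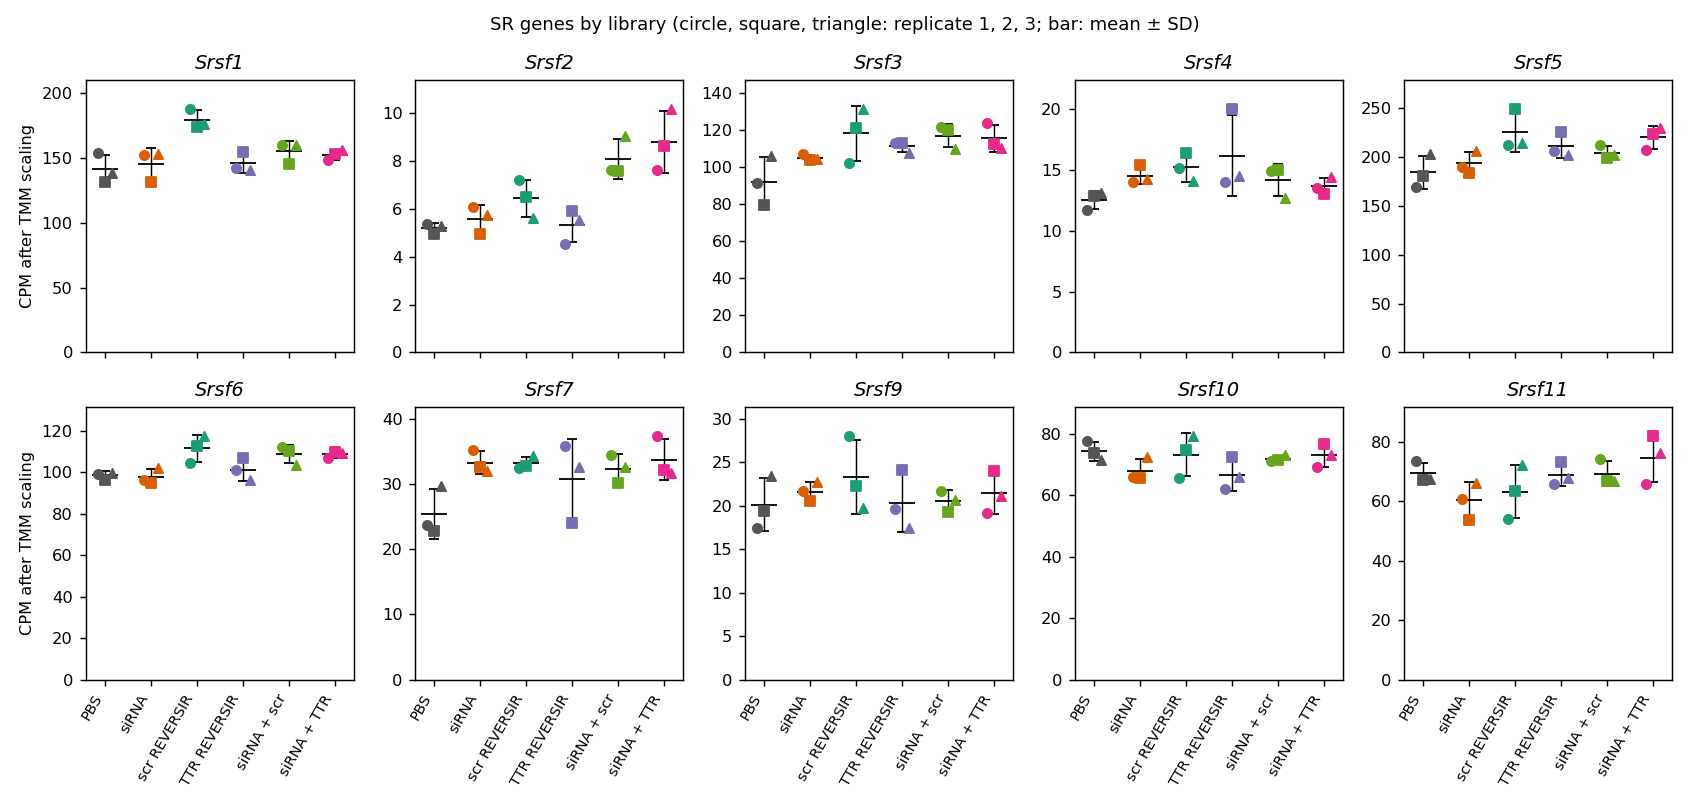
CPM after TMM scaling of the 10 SR genes in each library, by group, on linear axes from 0. Black lines show the mean ± SD of 3 libraries, "scr" means scrambled REVERSIR and "TTR" in the last group means TTR REVERSIR. The 3 scrambled REVERSIR libraries are the highest for Srsf1 and the 6 libraries with siRNA and a REVERSIR are the highest for Srsf2.

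Srsf3 and Srsf7 are small members that hand spliced mRNA to the export receptor NXF1, and Srsf7 carries a zinc knuckle beside its RNA recognition motif. Both were lowest in PBS, and there mostly in the 2 libraries with high mitochondrial ribosomal RNA. Srsf3 had 91.4, 79.5 and 106 CPM in PBS, against 107, 104 and 104.5 with siRNA. It had 102, 121 and 132 CPM with scrambled REVERSIR and 113, 113 and 108 with TTR REVERSIR. The siRNA + scrambled REVERSIR libraries had 122, 120.0 and 109.9 CPM, and the siRNA + TTR REVERSIR libraries 124, 113 and 110.4. PBS replicates 1 and 2 were the 2 lowest of the 18 libraries, and PBS replicate 3 lay inside the range of the treated ones. Srsf7 was also lowest in PBS replicates 1 and 2, with 23.8, 22.8 and 29.8 CPM in PBS and 35.3, 32.6 and 32.1 with siRNA. Its other libraries lay between 24.1 CPM, in TTR REVERSIR replicate 2, and 37.4 CPM, in siRNA + TTR REVERSIR replicate 1. Unlike for Srsf3, PBS replicate 3 lay below every treated library of Srsf7 but TTR REVERSIR replicate 2.

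In siRNA against PBS, Srsf7 was 0.39 ± 0.12 higher on the log2 scale (1.31-fold), at an unadjusted p of 0.00365 and an adjusted p of 0.0781 by edgeR. Srsf3 was 0.19 ± 0.09 higher, at 0.0409 unadjusted and 0.226 adjusted. With PBS replicates 1 and 2 left out, the differences were 0.16 for Srsf7 and −0.0076 for Srsf3. Without PBS replicate 3, they were 0.51 and 0.29, and both passed, at edgeR adjusted p-values of 0.0127 and 0.0282. Srsf7 also passed without TTR REVERSIR replicate 2, at 0.0446. Described against PBS over all 3 PBS libraries, Srsf3 differed by 0.35, 0.27, 0.35 and 0.33 in scrambled REVERSIR, TTR REVERSIR, siRNA + scrambled REVERSIR and siRNA + TTR REVERSIR, and by 0.15, 0.08, 0.15 and 0.13 against PBS replicate 3 alone. Srsf7 differed by 0.39, 0.35, 0.36 and 0.42 in that order, and by 0.16, 0.12, 0.13 and 0.20 against PBS replicate 3 alone. Against siRNA alone, the mean of both combinations differed by 0.15 ± 0.07 for Srsf3, at 0.0487 unadjusted and 0.857 adjusted in edgeR, and by −0.0016 ± 0.095 for Srsf7.

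Srsf4, Srsf5 and Srsf6 carry a pair of RNA recognition motifs and long RS domains. Srsf5 had 170.0, 181 and 203 CPM in PBS, 190.1, 184 and 207 with siRNA, and 213, 249.5 and 215 with scrambled REVERSIR. It had 207, 226 and 202 CPM with TTR REVERSIR, 213, 199 and 202 with siRNA + scrambled REVERSIR, and 207, 224 and 229.8 with siRNA + TTR REVERSIR. The siRNA + TTR REVERSIR libraries all lay above the highest siRNA library (lowest 207.1 against 206.9), and the log2 difference was 0.18 ± 0.07 (unadjusted p 0.0215, edgeR adjusted p 0.784). Srsf6 was the steadiest member between libraries, with 99.4, 96.2 and 99.8 CPM in PBS and 96.5, 95.1 and 102 CPM with siRNA. Its mean was highest with scrambled REVERSIR alone, at 104.5, 112.8 and 117.5 CPM, which also lay above the siRNA libraries. The TTR REVERSIR libraries had 101, 106.9 and 96.1 CPM. With the siRNA added, it had 112, 110.3 and 104 CPM with siRNA + scrambled REVERSIR and 107, 109.9 and 109.5 CPM with siRNA + TTR REVERSIR. All 6 combination libraries lay above the 3 siRNA libraries, with log2 differences of 0.15 ± 0.06 in both comparisons, at unadjusted p-values of 0.0199 and 0.023 and edgeR adjusted p-values of 1.0 and 0.784. The share of all genes whose libraries separate in these ways was not counted, so the separations of Srsf5 and Srsf6 are a description without a background. Srsf4 ranged from 11.7 to 20.01 CPM, with its highest value in TTR REVERSIR replicate 2, and its differences from siRNA were −0.02 ± 0.12 and −0.09 ± 0.125. Srsf4 differed by 0.21 and Srsf5 by 0.07 between siRNA and PBS, and without PBS replicates 1 and 2 by 0.15 and −0.06. In TTR REVERSIR against scrambled REVERSIR, Srsf6 differed by −0.14 ± 0.07, at an unadjusted p of 0.0535 and an edgeR adjusted p of 0.688, and Srsf5 by −0.10 ± 0.08.

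Srsf9, Srsf10 and Srsf11 lie at the edges of the family. Srsf9 has the shortest RS domain, Srsf10 turns into a general repressor of splicing when it is dephosphorylated, and Srsf11 is a less typical member that interacts with U2AF. Srsf11 had 73.4, 67.1 and 67.3 CPM in PBS, and the siRNA libraries had 60.8, 53.7 and 66.1 CPM. With siRNA + scrambled REVERSIR it had 74.0, 66.9 and 66.8 CPM, and with siRNA + TTR REVERSIR 65.8, 81.8 and 76.2 CPM. The scrambled REVERSIR libraries had 54.1, 63.2 and 72.0 CPM and the TTR REVERSIR libraries 65.7, 73.2 and 67.6 CPM. Srsf11 was lowest on average with siRNA and differed from it by 0.20 ± 0.09 with the scrambled REVERSIR, at 0.0435 unadjusted and 1.0 adjusted in edgeR. With the TTR REVERSIR it differed by 0.30 ± 0.09, at 0.00376 unadjusted and 0.643 adjusted in edgeR, although the lowest of those 3 libraries lay within the siRNA range. In siRNA against PBS the difference of Srsf11 was −0.20 ± 0.10, at 0.0544 unadjusted in edgeR, and −0.15 without PBS replicates 1 and 2. Srsf10 ranged from 61.9 to 79.3 CPM over the 18 libraries and differed from siRNA by 0.07 ± 0.07 and 0.09 ± 0.07. Srsf9 ranged from 17.4 to 28.0 CPM and differed from siRNA by −0.08 ± 0.12 and −0.03 ± 0.12. Without PBS replicates 1 and 2, Srsf9's difference of 0.12 ± 0.14 between siRNA and PBS became −0.10. Between TTR and scrambled REVERSIR, Srsf9 differed by −0.26 ± 0.16, Srsf10 by −0.15 ± 0.09 and Srsf11 by 0.13 ± 0.11.

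Over the 8 tested comparisons, 0 of the 10 SR genes passed the threshold of 0.05 in edgeR after adjustment over 11153 genes. The count includes Srsf1 and Srsf2, for which it is no fair test in the comparisons that hold REVERSIR libraries. DESeq2 also called 0 members, but it gave no adjusted p for 9 of the 10 in siRNA + TTR REVERSIR against siRNA (all but Srsf5) and for Srsf2, Srsf4 and Srsf9 in siRNA against PBS. Outside siRNA against PBS, edgeR called 0 to 2 genes of any kind per comparison. Srsf1 and Srsf2 carry the selection, so in comparisons that hold REVERSIR libraries they are left out of the members named at an unadjusted p below. At an unadjusted p under 0.05 in edgeR, Srsf6 and Srsf11 stood between siRNA + scrambled REVERSIR and siRNA, where 3.72% of all genes did (0% after adjustment). In siRNA + TTR REVERSIR against siRNA, these and Srsf5 did so, against 5.98% of all genes (0.00897% after adjustment). In the mean of both combinations against siRNA, Srsf3, Srsf6 and Srsf11 did, against 5.6% (0.00897%). These 3 comparisons share the siRNA libraries and most of their combination libraries, so they are not separate evidence. DESeq2 gave 2, 4 and 4 members in these 3 comparisons at an unadjusted p under 0.05. Its counts run over all 10 members and do not set Srsf1 and Srsf2 apart.

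The other comparisons held few such members or none. No member outside the selection had an unadjusted p under 0.05 in TTR REVERSIR against scrambled REVERSIR by edgeR. There, 7.33% of all genes did (0.0179% after adjustment). Between the 2 combinations, 0 members did, against 2.17% (0.00897%). When the siRNA was added to the scrambled REVERSIR, no member outside the selection did, against 6.22% of all genes (0.0179%). When it was added to the TTR REVERSIR, none did, against 4.44% (0%). In siRNA against PBS, 2 members did so, where 20.1% of all genes did (2.62% after adjustment, or 292 genes, 113 higher and 179 lower), so the members' share was at the background. DESeq2 gave 1, 0, 1, 1 and 2 members in this order, again counted with Srsf1 and Srsf2. The 292 genes became 1 without PBS replicate 1, 2 without PBS replicate 2, 1365 without PBS replicate 3, and 62, 12 and 44 without siRNA replicates 1, 2 and 3, and the fit without PBS replicates 1 and 2 called 1.

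The directions of the members were described by their medians, with no test. The counts and medians include Srsf1 and Srsf2. Where a comparison holds REVERSIR libraries, they thus partly reuse the selecting values and are no separate evidence of a shift of the family. Against siRNA, 7 of 10 members were above 0 with the scrambled REVERSIR and 8 of 10 with the TTR REVERSIR, with medians of 0.08 and 0.12 on the log2 scale, where the median of all genes was −0.00195 and −0.0036. In TTR REVERSIR against scrambled REVERSIR, 8 of 10 were below 0, with a median of −0.12 against −0.0039 for all genes. Srsf2 and Srsf1 were the lowest members there, at −0.35 and −0.31. Srsf2 was the highest member against siRNA with either REVERSIR, at 0.51 and 0.64. In siRNA against PBS, 7 of 10 were above 0, with a median of 0.09 against 0.0029 for all genes, but without PBS replicates 1 and 2 only 4 of 10 were above 0, with a median of −0.013 against 0.012. For scale, the median absolute difference over all genes was 0.08, 0.09, 0.12 and 0.15 in these 4 comparisons. Described against PBS, the member medians were 0.29 with the scrambled and 0.04 with the TTR REVERSIR alone, and 0.15 and 0.14 with the siRNA added to each, and these contrasts share their PBS libraries. Without PBS replicates 1 and 2 the same medians were 0.16, 0.04, 0.13 and 0.13.

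**Figure D3:**
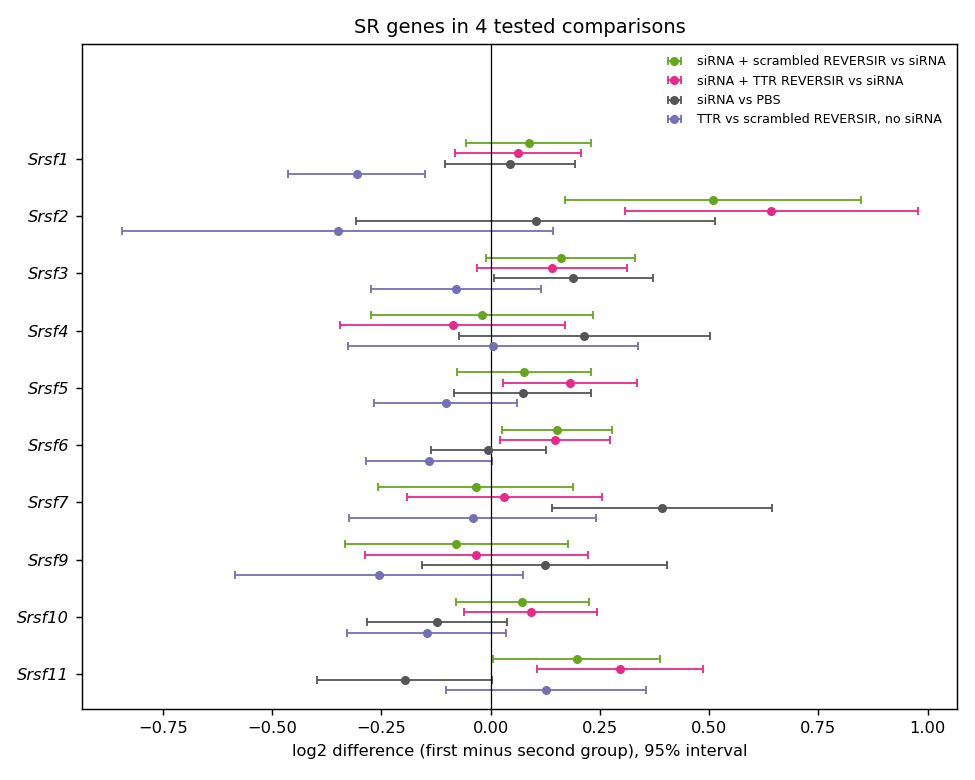
Log2 differences of the 10 SR genes in 4 tested comparisons, with points for the edgeR estimate and bars for its 95% interval. Srsf2 lies highest against siRNA, at 0.51 and 0.64, and Srsf2 and Srsf1 lie lowest in TTR against scrambled REVERSIR, at −0.35 and −0.31. Both genes share these libraries with their selection, so their intervals there are a description and no test.

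Across libraries, the correlation between members varied from pair to pair. Over 45 pairs of members, the median Pearson's r of log2 CPM was 0.27 over 18 libraries and 0.24 over the 16 without PBS replicates 1 and 2, with 37 and 34 pairs above 0. The closest pair was Srsf3 and Srsf6, at 0.735 and 0.787. Srsf5 with Srsf6 stood at 0.715 and 0.696, and Srsf1 with Srsf6 at 0.656 and 0.623. Srsf3 with Srsf7 stood at 0.683 over 18 libraries and at 0.217 without the 2 PBS libraries. The lowest over 18 libraries was Srsf7 with Srsf10, at −0.415, and −0.262 over 16. The lowest over 16 was Srsf4 with Srsf7, at −0.647, and −0.017 over 18. These libraries share groups, scaling and counting error, so the values describe the set and carry no test. The r between other genes of like level was not computed, so whether members go together more than other genes was not tested.

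**Figure D4:**
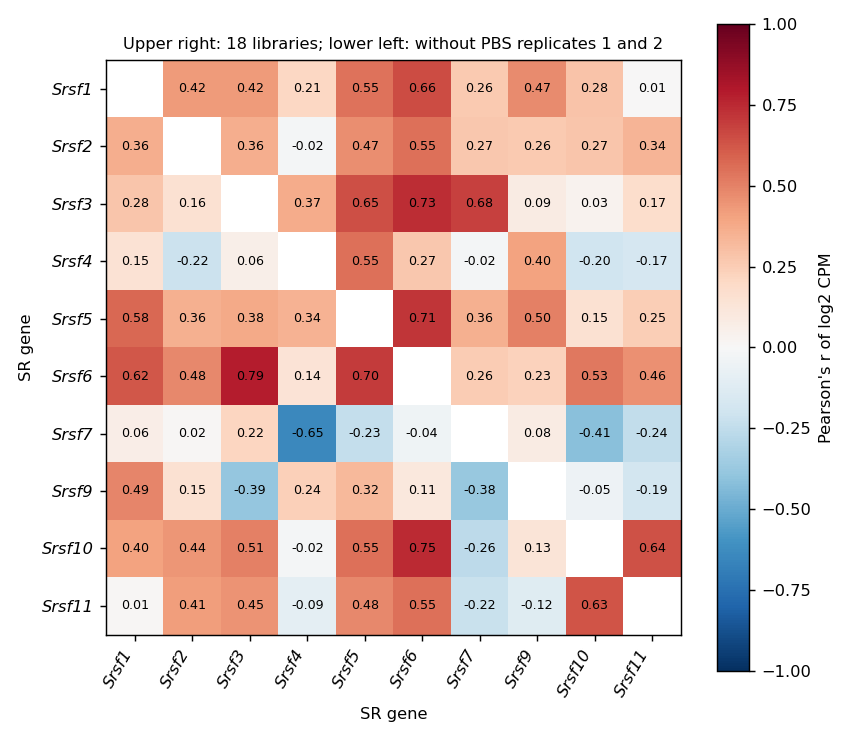
Pearson's r of log2 CPM between SR genes, over 18 libraries in the upper right and over the 16 libraries without PBS replicates 1 and 2 in the lower left. Srsf3 and Srsf6 form the closest pair in both, and the Srsf3 with Srsf7 value drops from 0.683 to 0.217.

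Genes outside the family with the most similar pattern were sought for Srsf1 and Srsf2 among 6835 genes whose mean log2 CPM was 4 or more. For Srsf1, Fam35a had an r of 0.867 over 18 libraries and 0.941 over 16. Ube2e2, which encodes a ubiquitin-conjugating enzyme, had 0.816, Dis3, a catalytic subunit of the RNA exosome, had 0.804, Mia2 had 0.803 and Haus2, of the augmin complex, had 0.781. For Srsf2, Ttc14 had 0.809 over 18 libraries and 0.78 over 16. Srek1, itself an SR-related splicing regulator, had 0.73, Epm2aip1 had 0.72, Glrx5, a mitochondrial glutaredoxin, had 0.713 and Ier3ip1 had 0.686. As these are the highest of many values over the same libraries, they are given as a description.

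The partners of the SR proteins were followed as 6 lists of 66 genes in all, of which 65 passed the filter and Srpk3 did not. After adjustment over all genes, 0 of 65 passed in each of the 8 comparisons by edgeR. DESeq2 also called 0, among 65 with an adjusted p in 6 comparisons, 10 in siRNA + TTR REVERSIR against siRNA and 52 in siRNA against PBS. The edgeR count in siRNA against PBS rose to 32 with library totals alone, 10 without PBS replicate 3 and 6 with no filter on low counts. It was 2 without TTR REVERSIR replicate 2 and 1 without siRNA + TTR REVERSIR replicate 1. Over all genes, these settings called 3844, 1365, 677, 432 and 393 in the same order, so the background rose too. At an unadjusted p under 0.05 in edgeR, 2 of 65 (3.08%) did so with siRNA + scrambled REVERSIR against siRNA, where 3.72% of all genes did, 5 (7.69%) with siRNA + TTR REVERSIR, against 5.98%, and 3 (4.62%) in the mean of both, against 5.6%. TTR REVERSIR against scrambled REVERSIR held 6 (9.23%, against 7.33%) and the comparison of the 2 combinations 1 (1.54%, against 2.17%). For siRNA against PBS, 12 (18.5%) did so, against 20.1% of all genes. Adding the siRNA gave 3 (4.62%, against 6.22%) over the scrambled and 8 (12.3%, against 4.44%) over the TTR REVERSIR. The kinases that phosphorylate RS domains had a median log2 difference from siRNA of 0.0049 with the scrambled and 0.03 with the TTR REVERSIR, with 4 and 6 of 8 above 0. The 17 SR-related coactivators had 12 and 13 above 0, with medians of 0.02 and 0.04. The 10 factors of nonsense-mediated decay had 3 and 2 above 0, with medians of −0.02 and −0.03. The 16 hnRNP proteins, which often oppose SR proteins at exons, had 11 and 10 above 0, with medians of 0.06 and 0.03. The 9 splice-site recognition partners had 5 and 4 above 0, and the 5 import and export partners had 2 in each.

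Clk1, a kinase that phosphorylates SR proteins in the nucleus, was singled out after its values were seen. It had 61, 57.3 and 65.0 CPM with siRNA, 72.3, 71.9 and 70.3 CPM with siRNA + scrambled REVERSIR, and 79.9, 77.9 and 77.1 CPM with siRNA + TTR REVERSIR. The 3 groups did not overlap, and the share of all genes that separate them in this way was not counted. The log2 difference from siRNA was 0.22 ± 0.095 with the scrambled and 0.35 ± 0.09 with the TTR REVERSIR, at unadjusted p-values of 0.0282 and 0.00105 and edgeR adjusted p-values of 1.0 and 0.643. With no filter on low counts the second passed, at an adjusted p of 0.0304. The PBS libraries of Clk1 had 75.6, 84.3 and 59.8 CPM, so the 2 with high mitochondrial ribosomal RNA were above the third. Scrambled REVERSIR alone had 70.4, 86.5 and 72.0 CPM, which overlapped both combinations. TTR REVERSIR alone had 64.4, 72.3 and 57.5 CPM, which overlapped siRNA and siRNA + scrambled REVERSIR. The hnRNP list went both ways in siRNA against PBS, where 0 of 16 passed. Of these, 7, also named after their values were seen, had an unadjusted p under 0.05 in edgeR, where 20.1% of all genes did. Above 0 were Hnrnpa3 at 0.63 ± 0.20, Hnrnpa2b1 at 0.50 ± 0.15, Hnrnpa1 at 0.23 ± 0.08 and Hnrnpab at 0.16 ± 0.07, which became 0.08, 0.0028, −0.014 and −0.026 without PBS replicates 1 and 2. Below 0 were Hnrnpd at −0.58 ± 0.20, Hnrnpa0 at −0.35 ± 0.115 and Hnrnpl at −0.23 ± 0.10, which became −0.32, −0.29 and 0.17. Hnrnpa3 had 76.2, 78.0 and 144.5 CPM in PBS and 159.7, 140.4 and 157 with siRNA, so that PBS replicate 3 lay within the siRNA range. Hnrnpd had 31.9, 36.0 and 26.5 CPM in PBS and 22.1, 18.4 and 22.5 with siRNA, and these groups did not overlap. Here too the share of all genes without overlap was not counted.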

How the data were processed

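Raw read counts per Ensembl gene, whole numbers for 37991 genes in each of 18 libraries, were deposited by the authors. The submitters' processing notes name STAR, DESeq2 and the build NCBIM37, per the labels, and neither versions nor the counter, strand setting and annotation are stated there. The authors also deposited 5 tables against PBS with a mean normalized signal, a log2 fold change, a Wald score and a p-value per gene, of which the log2 fold changes of the members are quoted.

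The members and gene lists were chosen with earlier results of these data known. Genes were filtered with filterByExpr of edgeR 4.0.16 (R 4.3.3), which left 11153, scaled by TMM, and fitted with quasi-likelihood models over all 18 libraries with the group as the only term (12 residual degrees of freedom). Benjamini-Hochberg adjustment ran over all genes tested, with a threshold of 0.05. Standard errors and 95% intervals were derived from the F statistic. The fit was tested on simulated data. Libraries were grouped by title, and no replicate pair agreed within counting noise (chi-square per degree of freedom of at least 2.24). Tested were 8 comparisons, and 4 were described. Levels between genes were compared per kilobase of merged exons.

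The rule for names took the 10 members, up to 3 genes per list and comparison past the threshold, and the 5 genes most correlated with Srsf1 and with Srsf2 (log2 CPM, prior count 2). As 0 listed genes passed, Clk1 and 7 hnRNP genes were named outside that rule, after their values were seen. Alternatives were RLE factors, library totals alone, no filter, DESeq2 1.42.0, the replicate number as a block, mitochondrial ribosomal RNA left out or as a covariate, PBS replicates 1 and 2 left out, the compared groups alone, and each of the 18 libraries left out in turn. Precision is limited by depth, most for Srsf2 with 10 to 79 counts per library.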

Additional observations from a re-analysis of the deposited data

How the results depend on the processing

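The count of SR genes past the threshold stayed at 0 in 7 of the 8 comparisons under all 27 alternatives, where DESeq2 gave 9 of 10 members no adjusted p in siRNA + TTR REVERSIR against siRNA. In siRNA against PBS it became 7 with library totals alone and 1 with no filter on low counts, and it ranged from 0 to 2 when single libraries were left out. Library totals alone also moved the median of all genes in that comparison to 0.331 on the log2 scale and called 3844 genes, 3819 higher and 25 lower, where TMM scaling called 292 (113 and 179), DESeq2 421, no filter 677, and the mitochondrial ribosomal RNA covariate, the 2 compared groups alone and the fit without PBS replicates 1 and 2 called 1 each. With no filter, 21 to 42 genes were called in the other 7 comparisons, where the filtered fit called 0 to 2, and DESeq2 called 15 in siRNA + TTR REVERSIR against siRNA. Srsf3 in siRNA against PBS turned to −0.0076 without PBS replicates 1 and 2, where the cause was not tested. Pairs of member and comparison with an unadjusted p under 0.05 in edgeR numbered 16, those of the selected Srsf1 and Srsf2 included. Of 429 recomputed values for them, 422 kept direction and side of the threshold, 6 passed it and 1 turned. For Srsf1 and Srsf2, a kept direction in comparisons that hold REVERSIR libraries is no support for their differences, because those libraries selected them. Of all 80 pairs, 24 changed sign under at least 1 alternative. In 7 comparisons the pairs that did so had differences of at most 0.0754. They were 6 in siRNA against PBS, with differences up to 0.197: Srsf3, Srsf5 and Srsf9 turned without PBS replicates 1 and 2, and Srsf10 and Srsf11 became 0.20 and 0.12 with library totals alone, while Srsf6 lay near 0. Of the 65 listed partner genes, 32 passed in siRNA against PBS with library totals alone, 10 without PBS replicate 3 and 6 with no filter. These settings called 3844, 1365 and 677 genes of any kind. Deviations of replicates of the same number had a median r of −0.013 over 45 pairs, with 6 over 0.1 and a highest r of 0.287. Those of different numbers had a median of 0.00113 over 90 pairs, with 10 over 0.1 and a highest r of 0.223. The main fit took no pairing by number, but a median near 0 cannot exclude one. With the replicate number as a block, 0 members were called in each of the 8 comparisons, and siRNA against PBS called 248 genes. Depth limits Srsf2 most.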
